A study of Mus musculus with 14 samples.

Results

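The genes described here carry out the uptake, activation and oxidation of fatty acids in heart muscle cells. They are 37 genes picked by name, and every one of the 37 was found among the 23337 genes of the count table. RNA was sequenced from cardiomyocytes that were isolated by Langendorff perfusion from hearts of 4-week-old Rosa-Cas9GFP mice and purified by flow sorting. The 7 samples labelled KO came from mice that received the adeno-associated virus AAV-Ryr2gRNA on postnatal day 1, and the 7 labelled Ctrl from mice given AAV-Cre at that age. Both groups thus share the Rosa-Cas9GFP background, the viral injection and the sort, and differ in the virus. The labels state neither whether AAV-Ryr2gRNA also encodes Cre nor whether each sample is 1 animal, so the p-values measure only how these samples vary. The comparison asks how these genes differed when Ryr2, the calcium release channel of the sarcoplasmic reticulum, was targeted.

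The working heart draws most of its energy from fatty acids. Lipoprotein lipase frees them from lipoproteins in the blood, CD36 brings them into the cell and small binding proteins carry them through the cytosol. Acyl-CoA synthetases couple them to coenzyme A, thioesterases undo that step, and the carnitine shuttle takes the acyl groups across the inner mitochondrial membrane. There, β-oxidation shortens the chain through dehydrogenation, hydration, a second dehydrogenation and thiolysis, and the electrons of the first dehydrogenation pass through the electron transfer flavoprotein to the respiratory chain. The genes are taken below in that order.

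Ryr2, the check of the labels, lay between 602 and 763 normalised CPM (counts scaled to a common library size, using the trimmed mean of M-values, TMM) in the Ctrl libraries and between 225 and 371 CPM in the KO libraries. Its mean in KO was 45.8% of that in Ctrl, and a transcript level gives neither the protein nor the share of edited cells. Library totals ran from 5689335 to 13165662 counts. Ctrl replicates 4 and 5 and KO replicates 4 and 5, which hold library indices 7 to 10 in the labels, lay apart from the other 10 libraries on the second principal component (24.2% of the variance), and the labels name no batch for them. The defining markers of cardiomyocytes were abundant in every library (9 genes summing to 88672 CPM or more). Of the 9, 5 were called lower in KO and 0 higher (Myl2 -0.48, Myl3 -0.47, Tnni3 -0.45, Tnnt2 -0.28 and Actc1 -0.27 on the log2 scale). Among all tested genes with a mean log2 CPM of 8 or more, where all 9 lie, 47.4% were called lower, which is near the share of these markers. The sum of the 9 ran from 110056 to 129857 CPM in Ctrl and from 88672 to 118872 CPM in KO. The part of this difference in the fatty acid values was not tested. Macrophage markers summed to between 24.0 and 115 CPM in Ctrl and between 59.8 and 437 CPM in KO, where 3 of the 9 tested were called higher. Of the endothelial markers 0 of 10, and of the fibroblast markers 0 of 7, were called. Endothelial sums ran from 287 to 784 CPM in Ctrl and from 234 to 901 CPM in KO. Fibroblast sums ran from 187 to 603 CPM in Ctrl (median 233) and from 162 to 1231 CPM in KO (median 336). The fibroblast markers had log2 fold changes between 0.11 and 0.96. Of 5 tested pericyte and smooth muscle markers 1 was higher, Cspg4 (log2 0.94, edgeR adjusted p = 0.0019), and Cnn1, too low to be tested, averaged 0.448 CPM in Ctrl and 2.22 CPM in KO. Adipocyte markers stood at or near 0, with 4 of 6 at a count of 0 in all libraries.

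Most of the fatty acid genes were lower in KO cardiomyocytes. Of the 37, all of which were abundant enough to be tested, 28 were lower, 1 was higher and 8 were not called at an adjusted p under 0.05 (edgeR quasi-likelihood test). The 28 are 75.7% of the genes, whereas 13.7% of the 11170 genes tested were lower and 14.5% higher (1528 and 1621 genes). With scaling by library size alone, which moves the median of all genes by 0.13, that split was 852 lower and 3064 higher, and 24 of the 37 were lower and 2 higher. The median log2 fold change (KO minus Ctrl) was -0.40 for the 37 and 0.01 over all tested genes. Most of the falls were modest. Apart from Acsl6, at -1.79, the lower genes had log2 fold changes between -0.73 and -0.18. In 16 genes every KO library lay below every Ctrl library, which is 43.2% of them against 4.71% of all tested genes, while 0 of the 37 and 5.84% of all tested genes were separated in the other direction. For 27 of the 28 lower genes all 7 KO libraries lay below the Ctrl median. Abundant genes in general were lower, and fatty acid genes are abundant. Among the 553 tested genes whose mean log2 CPM reached 8, 47.4% were called lower, with a median of -0.19. Of the 21 fatty acid genes at that level 20 were lower, with a median of -0.48. Every KO library lay below every Ctrl library in 124 of those 553 genes and in 14 of those 21. In bulk samples, fewer cells of a type and less RNA per cell cannot be told apart.

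**Figure D1:**
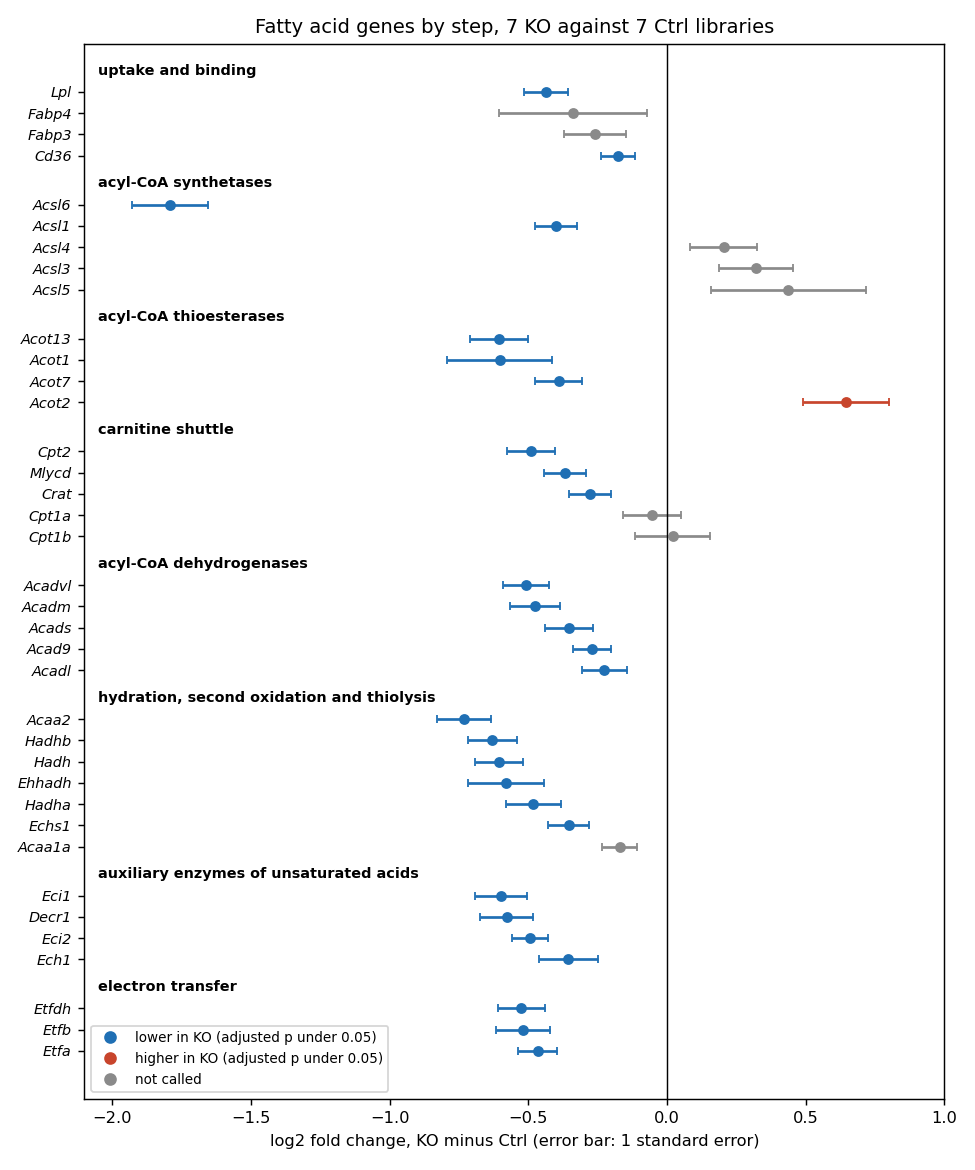
Log2 fold changes (KO minus Ctrl, x axis) of the 37 genes grouped by step, each point an estimate over 7 KO and 7 Ctrl libraries with 1 standard error. All points of the 4 oxidation steps at the bottom lie below 0, Acsl6 lies farthest to the left at -1.79, and Acot2 is the called gene on the right at 0.65.

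Measured as a share of each library's counts, the 37 genes took between 2.87% and 3.36% in the Ctrl libraries (median 3.26%) and between 2.37% and 2.79% in the KO libraries (median 2.56%). The groups did not overlap. The mean went from 3.17 ± 0.203% to 2.58 ± 0.151% (SD, n = 7 each). The libraries of indices 7 to 10 were low within their own group. Of the 37 genes, 29 had their lowest Ctrl value in Ctrl replicate 4 or 5. In KO, 26 had their lowest value in replicate 4 or 5. These libraries also had the highest endothelial, fibroblast and macrophage marker sums of their group. Endothelial sums were 686 and 784 CPM in Ctrl replicates 4 and 5, and 901 and 748 CPM in KO replicates 4 and 5. Fibroblast sums were, in that order, 595, 603, 1231 and 1119 CPM, and macrophage sums 109, 115, 437 and 281 CPM. Cardiomyocyte sums were lowest in Ctrl replicates 4 and 5 and in KO replicate 4. The part of this in the fatty acid values was not tested. Within the 4 libraries of indices 7 to 10, 24 genes were called lower (6.59% of all tested genes were), with a median of -0.50. Among the other 10 libraries 30 were called lower (11.6% of all tested genes), with a median of -0.43.

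**Figure D2:**
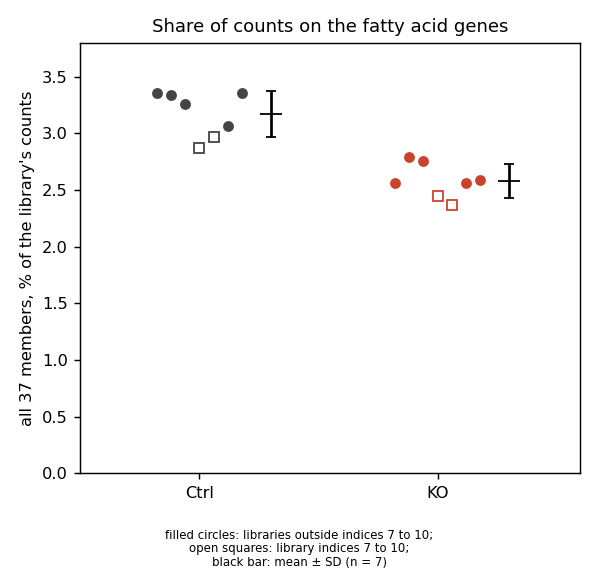
Counts on the 37 genes as a percentage of the library's total (y axis, from 0) for each Ctrl and KO library, with mean ± SD (n = 7). Open squares mark library indices 7 to 10. The lowest Ctrl library, at 2.87%, lies above the highest KO library, at 2.79%.

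Promoter sequences from RefSeq (GRCm38.p6) were matched for 29 of the 37 genes, in windows of 300 bases around the annotated start. Acsl6 is shown because it had the steepest fall and is the single matched gene with a window that holds the motif TCAAGGTCA. This is the element bound by estrogen-related receptors, here on the opposite strand and in capitals. The windows of the further annotated Acsl6 starts, chr11:54303954-54304253 and chr11:54314653-54314952, do not hold it. Which start is used in these cells was not tested. The stretch is chr11:54303604-54303703, on the plus strand, and ends 121 bases before the most upstream of the annotated starts.
Acsl6: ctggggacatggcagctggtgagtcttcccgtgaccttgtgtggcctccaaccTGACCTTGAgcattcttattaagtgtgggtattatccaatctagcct
On either strand, 126 of 27025 genes with a window (0.466%) hold this motif. The direct repeat of AGGTCA with 1 base N between the copies, which is bound by PPAR with RXR and shares its AGGTCA with the first motif, was in the windows of 13 of the 27025 genes (0.0481%) and of 0 of the 29. The GC box GGGCGG, on either strand, was found for 22 of the 29 and for 38.2% of all genes.

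Hadha and Hadhb are shown because they encode the subunits of one enzyme and lie head to head on chromosome 5, with 272 bases between their RefSeq start sites at 30154980 (minus strand) and 30155253 (plus strand). The stretch before the Hadhb start, chr5:30155003-30155252 on the plus strand, covers nearly all of that gap, with its 2 GC boxes in capitals.
Hadhb: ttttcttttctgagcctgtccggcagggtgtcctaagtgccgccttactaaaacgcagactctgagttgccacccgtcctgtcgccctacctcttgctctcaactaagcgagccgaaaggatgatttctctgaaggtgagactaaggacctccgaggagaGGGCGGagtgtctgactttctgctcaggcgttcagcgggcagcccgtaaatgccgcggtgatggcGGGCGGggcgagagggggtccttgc

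Acot2 and Acot1 are neighbours on the plus strand of chromosome 12, separated by 15626 bp, and are shown because their levels moved in opposite directions. The 120 bases before each start site are chr12:83987741-83987860 for Acot2 and chr12:84009382-84009501 for Acot1, and the GC box is found in that of Acot1 alone, on the opposite strand (ccgccc in the run shown).
Acot2: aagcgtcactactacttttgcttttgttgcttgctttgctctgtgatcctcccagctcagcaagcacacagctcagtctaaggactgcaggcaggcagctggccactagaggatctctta
Acot1: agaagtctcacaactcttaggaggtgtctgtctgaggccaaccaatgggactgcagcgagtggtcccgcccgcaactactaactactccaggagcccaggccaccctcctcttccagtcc

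Levels of different genes were compared as CPM per kb of exon. In Ctrl libraries the cytosolic binding protein gene Fabp3 stood highest, at 3070 ± 503 CPM per kb (SD, n = 7), followed by Ech1 at 1591 ± 221, Etfb at 1560 ± 188 and Lpl at 1386 ± 154 CPM per kb. Ech1 and Etfb did not differ beyond their spread. Next came the thiolase Acaa2 at 1327 ± 162 CPM per kb and the long- and medium-chain dehydrogenases Acadvl (1126 ± 113), Acadl (1107 ± 120) and Acadm (1061 ± 121), which also lay within each other's spread. At the low end were the synthetases Acsl6 (4.09 ± 0.792), Acsl4 (3.20 ± 0.503), Acsl3 (2.85 ± 0.619) and Acsl5 (2.73 ± 1.11 CPM per kb). Cpt1b was also counted there, at 2.81 ± 0.573 CPM per kb, a value whose limit is given below. In KO libraries the 4 highest were in the same order, Acadl took the fifth place ahead of Acaa2, and Acsl6 was the lowest of all at 1.18 ± 0.144 CPM per kb.

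**Figure D3:**
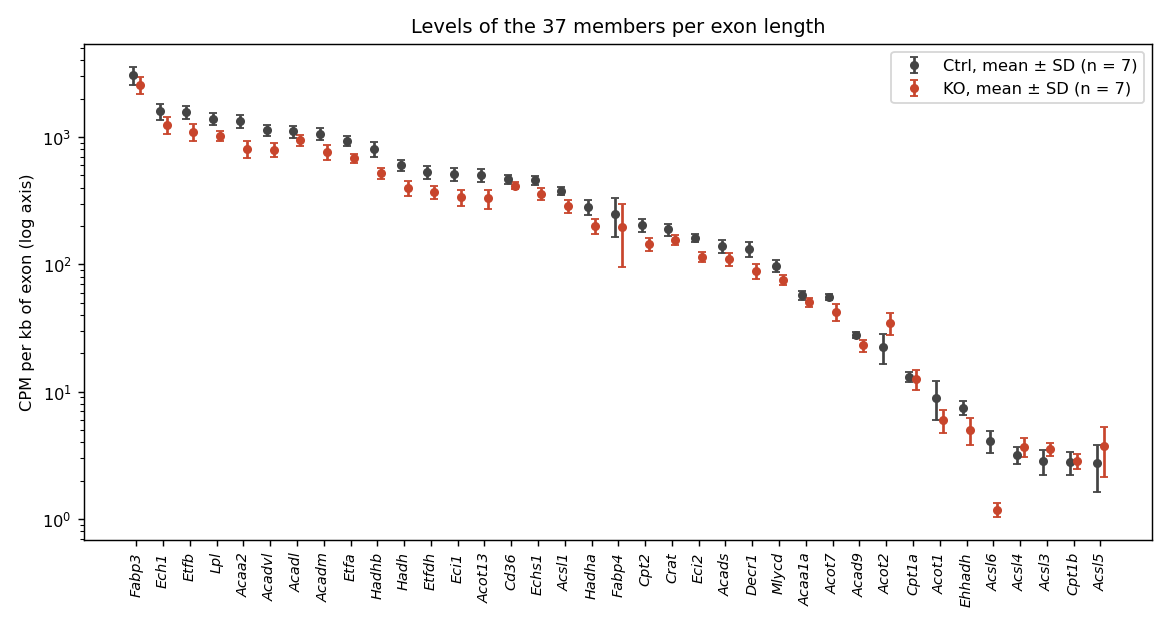
Level of each of the 37 genes in CPM per kb of exon (y axis, log scale) in Ctrl and KO libraries, as mean ± SD (n = 7 each), ordered by the Ctrl level. The KO points lie below the Ctrl points for most abundant genes, Acsl6 shows the widest gap (4.09 against 1.18 CPM per kb), and Acot2 lies higher in KO.

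For uptake, the secreted enzyme gene Lpl (chromosome 8, 68880555 to 68906932, plus strand, mm10) ran from 4922 to 6448 CPM in Ctrl libraries (median 5762) and from 3626 to 4503 CPM in KO libraries (median 4239). The groups did not overlap (log2 -0.44, SE 0.0784, adjusted p = 0.00050). Cd36, the membrane transporter of long-chain fatty acids, was between 1602 and 2018 CPM in Ctrl and between 1504 and 1771 CPM in KO, with overlap. Its log2 fold change of -0.18 just passed (adjusted p = 0.043), and the call was lost within indices 7 to 10 (-0.08, adjusted p = 0.60), with library size alone (-0.04, adjusted p = 0.60), with no filter on low counts (adjusted p = 0.11) and on leaving out any of 10 single libraries (Ctrl replicates 1, 2, 3, 6 and 7 and KO replicates 1 to 5, adjusted p = 0.054 to 0.088).

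The binding protein genes were not called. Fabp3, the heart form, ran from 1470 to 2350 CPM in Ctrl (median 2081) and from 1291 to 1995 CPM in KO (median 1639), and its log2 fold change of -0.26 had an SE of 0.112 (adjusted p = 0.096). It was called among the other 10 libraries (-0.26, adjusted p = 0.041). Fabp4, the form of endothelium, macrophages and fat cells, ran from 104 to 267 CPM in Ctrl and from 71.5 to 241 CPM in KO (log2 -0.34, SE 0.268, adjusted p = 0.39). Its highest values in each group were those of Ctrl replicate 5 and KO replicate 4. The same libraries had the highest sums of endothelial markers of their group (784 and 901 CPM, against group medians of 424 and 329 CPM). They also had the highest sums of macrophage markers (115 and 437 CPM) and of fibroblast markers (603 and 1231 CPM) of their group. Among the other 10 libraries Fabp4 was called lower (-0.60, adjusted p = 0.014), and within indices 7 to 10 its log2 fold change was -0.03. The part of other cell types in these values was not tested.

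The 5 acyl-CoA synthetase genes did not move together. Acsl1, the main form of the heart (chromosome 8, 46471042 to 46536050, plus strand), ran from 1315 to 1596 CPM in Ctrl (median 1500) and from 934 to 1276 CPM in KO (median 1169). The groups did not overlap (log2 -0.40, SE 0.0760, adjusted p = 0.00079). Acsl6, a form best known from brain, was far less abundant, at 10.1 to 17.3 CPM in Ctrl (median 12.3) and 2.87 to 4.10 CPM in KO (median 3.75), so that KO kept 28.8% of the Ctrl mean. It was the single gene of the 37 whose level was more than halved, and it had -1.71 within indices 7 to 10 and -1.84 in the other 10 libraries. The remaining forms are expressed at low levels and had positive fold changes that did not pass, Acsl3 at 0.32 (SE 0.133, adjusted p = 0.084), Acsl4 at 0.20 (SE 0.121) and Acsl5 at 0.44 (SE 0.281). With the replicate block both Acsl3 (adjusted p = 0.046) and Acsl5 (0.0083) were called higher, as they were with a term for indices 7 to 10 (0.039 and 0.048), and Acsl3 also with library size alone (0.011). Of Acsl3's exon bases, 10.6% are shared with Utp14b.

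The log2 ratio of Acsl1 to Acsl6 counts within a library, which does not depend on library scaling, ran from 6.43 to 7.29 in Ctrl and from 7.85 to 8.69 in KO. The groups did not overlap and their means differed by 1.36 (two-sided exact permutation test over 3432 assignments, p = 0.00058, the smallest it can give, adjusted p = 0.0014 over 7 ratios). Acsl6 thus fell by more than Acsl1.

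Among the thioesterases, which release free fatty acid from acyl-CoA, 3 genes fell and 1 rose. Acot13 (chromosome 13, 24817955 to 24831489, minus strand), a small thioesterase associated with mitochondria, ran from 280 to 418 CPM in Ctrl (median 341) and from 173 to 279 CPM in KO (median 224), without overlap (log2 -0.61, SE 0.104, adjusted p = 0.00034). Acot7, a cytosolic form, ran from 93.3 to 110 CPM in Ctrl and from 63.9 to 96.0 CPM in KO (log2 -0.39, adjusted p = 0.0019).

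Acot2, the mitochondrial form, was the single gene called higher among the 37. It ran from 32.9 to 67.8 CPM in Ctrl (median 45.9) and from 64.0 to 101 CPM in KO (median 70.2), with overlap, and its log2 fold change was 0.65 (SE 0.154, adjusted p = 0.0046). Within indices 7 to 10 the value was 0.78, and in the other 10 libraries 0.59. Its cytosolic neighbour Acot1 ran from 9.44 to 21.3 CPM in Ctrl (median 11.9) and from 7.75 to 12.97 CPM in KO (median 8.69). Ctrl replicates 1 and 2 held the high Acot1 values, and the call of -0.60 (SE 0.191, adjusted p = 0.025) was lost without Ctrl replicate 1 (-0.46, adjusted p = 0.069), without Ctrl replicate 2 (-0.50, adjusted p = 0.060), without KO replicate 4 (-0.56, adjusted p = 0.050), with library size alone (-0.47, adjusted p = 0.053) and within indices 7 to 10 (-0.55, adjusted p = 0.15). The log2 ratio of Acot2 to Acot1, in contrast, ran from 1.61 to 2.10 in Ctrl and from 2.55 to 3.54 in KO, a difference of 1.22 without overlap (exact permutation p = 0.00058, adjusted p = 0.0014). These genes are close copies, so the split of reads between them is uncertain.

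In the carnitine shuttle, Cpt2, the transferase of the inner mitochondrial membrane (chromosome 4, 107903982 to 107923589, minus strand), ran from 397 to 529 CPM in Ctrl (median 506) and from 287 to 393 CPM in KO (median 331). The groups did not overlap, the highest KO library lying just under the lowest Ctrl library (log2 -0.49, SE 0.0872, adjusted p = 0.00046). Crat, the carnitine acetyltransferase that buffers acetyl-CoA, fell by 0.28 on the log2 scale (710 to 936 CPM in Ctrl, 604 to 763 CPM in KO, adjusted p = 0.0098). Mlycd, which breaks down malonyl-CoA, the inhibitor of the outer transferase, had a log2 fold change of -0.37 (165 to 223 against 142 to 179 CPM, adjusted p = 0.0014), or -0.29 within indices 7 to 10, where it was not called (adjusted p = 0.10).

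The outer transferase was not called in either form. Cpt1a, the form of liver and of the immature heart, ran from 49.0 to 62.6 CPM in Ctrl and from 36.3 to 66.0 CPM in KO (log2 -0.05, SE 0.105, adjusted p = 0.76). Cpt1b, the muscle form, was counted at only 6.55 to 11.6 CPM in Ctrl and 6.17 to 9.66 CPM in KO (log2 0.02, SE 0.134, adjusted p = 0.93). Of its 2894 exon bases, 2744 (94.8%) also belong to the gene model BC090627 on the same strand, which has a count of 0 in the Ctrl libraries. The sources do not say how reads on 2 genes were counted, so these values cannot be read as the level of Cpt1b. The ratio of Cpt1b to Cpt1a (difference 0.09 on the log2 scale, exact permutation p = 0.65, adjusted p = 0.68) carries the same limit.

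**Figure D4:**
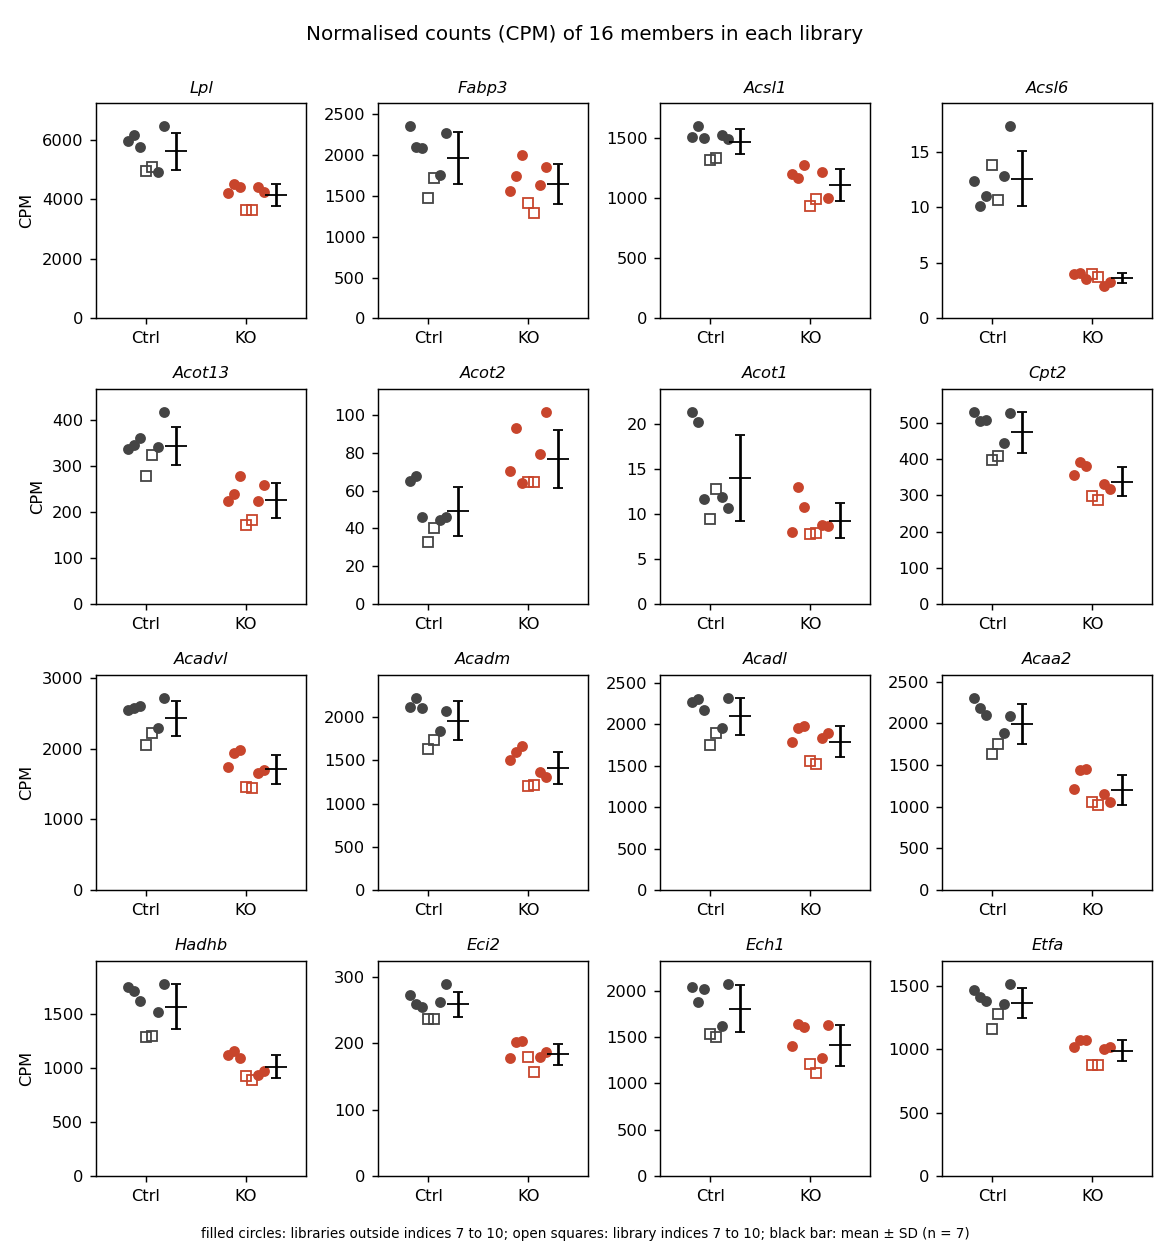
CPM (y axes, from 0) of 16 of the genes in every Ctrl and KO library, with mean ± SD (n = 7). Open squares mark library indices 7 to 10. Acsl6, Lpl, Acaa2 and Hadhb show no overlap between groups, Acadl and Fabp3 overlap, and Acot2 is higher in KO.

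Expression of the β-oxidation enzymes was lower at every step. Of the 19 genes of the dehydrogenation, hydration and thiolysis, auxiliary and electron transfer steps, 18 were lower and 0 higher, with log2 fold changes between -0.73 and -0.17 (median -0.49). Of the 18 genes of uptake, activation and the carnitine shuttle, 10 were lower and 1 higher (median -0.31). Of all tested genes 13.7% were lower, and of those with a mean log2 CPM of 8 or more, where most of the oxidation genes lie, 47.4%. Whether these 2 sets differ was not tested.

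The acyl-CoA dehydrogenases start each round and divide the work by chain length. All 5 were called lower. Acadvl, for very long chains (chromosome 11, 70010192 to 70015407, minus strand), ran from 2052 to 2718 CPM in Ctrl (median 2543) and from 1450 to 1987 CPM in KO (median 1707), without overlap (log2 -0.51, SE 0.0840, adjusted p = 0.00024). Acadm, for medium chains, ran from 1627 to 2217 CPM in Ctrl (median 2064) and from 1206 to 1668 CPM in KO (median 1366), where the highest KO library, replicate 3, passed the lowest Ctrl library, replicate 4 (log2 -0.48, SE 0.0897, adjusted p = 0.00074). Acads, for short chains, had -0.35 (adjusted p = 0.0048). Acad9, which also serves in the assembly of complex I, had -0.27 (adjusted p = 0.0063) and was not called within indices 7 to 10 (-0.27, adjusted p = 0.12) or with library size alone (-0.14, adjusted p = 0.093).

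Acadl, the long-chain enzyme, ran from 1751 to 2316 CPM in Ctrl (median 2174) and from 1521 to 1981 CPM in KO (median 1835), with overlap. Its log2 fold change of -0.23 just passed (SE 0.0806, adjusted p = 0.045), and the call was lost with library size alone (-0.09, adjusted p = 0.19), with no filter on low counts (adjusted p = 0.099) and on leaving out any of 8 single libraries (Ctrl replicates 1, 2, 3 and 7 and KO replicates 1, 4, 5 and 6, adjusted p = 0.062 to 0.10). The log2 ratio of Acadl to Acadm was 0.05 to 0.17 in Ctrl and 0.25 to 0.54 in KO. The difference of 0.25 showed no overlap (exact permutation p = 0.00058, adjusted p = 0.0014), so Acadm fell by more than Acadl.

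Acaa2, a thiolase of β-oxidation in mitochondria (chromosome 18, 74779212 to 74806207, plus strand), had the lowest fold change of the 37 after Acsl6. It ran from 1631 to 2301 CPM in Ctrl (median 2091) and from 1019 to 1457 CPM in KO (median 1155), so that KO kept 60.2% of the Ctrl mean (log2 -0.73, SE 0.0986, adjusted p = 3.6e-05). Within indices 7 to 10 it had -0.75, and in the other 10 libraries -0.74. Hadh, the dehydrogenase of shorter chains, was at 917 to 1140 CPM in Ctrl and 595 to 805 CPM in KO (log2 -0.61, adjusted p = 6.5e-05). Echs1, the short-chain hydratase, was at 598 to 760 and 465 to 614 CPM (log2 -0.35, adjusted p = 0.0018).

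Hadha and Hadhb encode the α and β subunits of the mitochondrial trifunctional protein, which handles long chains. Hadhb ran from 1290 to 1779 CPM in Ctrl (median 1620) and from 886 to 1156 CPM in KO (median 973), without overlap (log2 -0.63, SE 0.0887, adjusted p = 5.4e-05). Hadha ran from 920 to 1260 CPM in Ctrl (median 1094) and from 622 to 899 CPM in KO (median 751), also without overlap (log2 -0.48, SE 0.0987, adjusted p = 0.0014). Their log2 ratio (Hadha to Hadhb) was -0.70 to -0.46 in Ctrl and -0.57 to -0.29 in KO, with overlap. The mean difference of 0.14 passed (exact permutation p = 0.019, adjusted p = 0.034), but not when any one of 7 libraries was left out (Ctrl replicates 6 and 7 and KO replicates 2, 3, 5, 6 and 7, adjusted p = 0.057 to 0.078).

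The peroxisomal enzymes among the 37 differed from each other in call. Ehhadh, the bifunctional enzyme of peroxisomes, was at 18.5 to 26.8 CPM in Ctrl (median 22.0) and 10.9 to 20.1 CPM in KO (median 15.3; log2 -0.58, SE 0.137, adjusted p = 0.0043). The thiolase Acaa1a was at 92.7 to 116 CPM in Ctrl (median 97.2) and 78.6 to 96.2 CPM in KO (median 92.8), and its log2 fold change of -0.17 did not pass (SE 0.0645, adjusted p = 0.057). It passed with DESeq2 (adjusted p = 0.039), upper-quartile scaling (0.039), the replicate block (0.049) and a term for indices 7 to 10 (0.049), and in the authors' deposited table (0.040). Reads of Acaa1a may be shared with its close copy Acaa1b, which was nearly uncounted.

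Double bonds in fatty acids need auxiliary enzymes, and all 4 of their genes were lower. Eci2, an enoyl-CoA isomerase (chromosome 13, 34977748 to 34994144, minus strand), ran from 236 to 289 CPM in Ctrl (median 259) and from 157 to 203 CPM in KO (median 180), without overlap (log2 -0.49, SE 0.0641, adjusted p = 2.5e-05). Eci1, the other isomerase, had -0.60 and the dienoyl-CoA reductase Decr1 -0.58, both without overlap between groups (adjusted p = 0.00014 and 0.00023). Ech1, a dienoyl-CoA isomerase, ran from 1506 to 2076 CPM in Ctrl (median 1876) and from 1116 to 1646 CPM in KO (median 1408), with overlap (log2 -0.36, SE 0.106, adjusted p = 0.018).

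All 3 electron transfer genes were lower. Etfa, the α subunit of the flavoprotein (chromosome 9, 55454436 to 55512243, minus strand), ran from 1161 to 1518 CPM in Ctrl (median 1385) and from 873 to 1077 CPM in KO (median 1020; log2 -0.47, SE 0.0695, adjusted p = 9.3e-05). Etfb, the β subunit, ran from 1082 to 1501 CPM in Ctrl (median 1211) and from 692 to 1044 CPM in KO (median 860; log2 -0.52, SE 0.0973, adjusted p = 0.00072). Etfdh, the oxidoreductase that passes the electrons to ubiquinone, ran from 996 to 1329 and from 726 to 970 CPM (log2 -0.53, adjusted p = 0.00018). In each of these genes every KO library lay below every Ctrl library. The log2 ratio of Etfa to Etfb differed by 0.06 between groups (0.11 ± 0.081 in Ctrl and 0.17 ± 0.13 in KO, SD, n = 7 each, exact permutation p = 0.34, adjusted p = 0.48). That of Fabp3 to Fabp4 differed by 0.16 (3.67 ± 0.591 and 3.84 ± 0.824, exact permutation p = 0.68, adjusted p = 0.68).

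**Figure D5:**
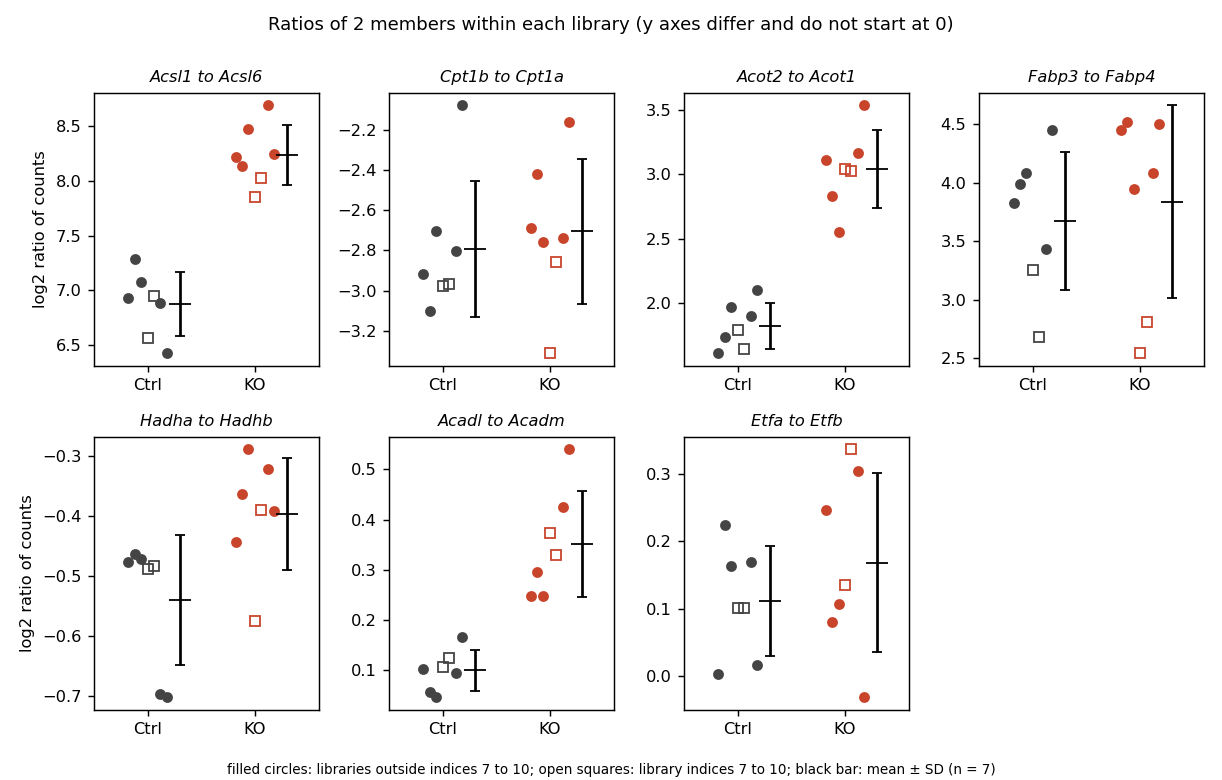
Log2 ratios of counts of 2 genes within each library (y axes differ and do not start at 0), with mean ± SD (n = 7); open squares mark library indices 7 to 10. Acsl1 to Acsl6, Acot2 to Acot1 and Acadl to Acadm show no overlap between groups, with differences of 1.36, 1.22 and 0.25, and the other 4 ratios overlap.

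Other genes of fatty acid metabolism were taken from fixed lists, of which 63 genes were in the count table. Against them stand the shares over all tested genes, 14.5% higher and 13.7% lower. Of 9 tested genes of uptake and binding, 1 was higher and 0 lower (median -0.17), which is not above those shares. The higher gene was the transporter Slc27a4, which ran from 27.3 to 33.1 CPM in Ctrl and from 33.6 to 43.1 CPM in KO without overlap (log2 0.34, adjusted p = 0.0021). Vldlr, a lipoprotein receptor (log2 -0.17, SE 0.0805), Dbi, the acyl-CoA binding protein (-0.20, SE 0.124), and Angptl4, a secreted inhibitor of lipoprotein lipase (0.78, SE 0.505), were not called (adjusted p = 0.12, 0.27 and 0.28).

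Of 8 tested genes of carnitine and malonyl-CoA metabolism, 5 were lower and 0 higher (median -0.23). Slc25a20, the carrier that exchanges acylcarnitine for carnitine across the inner membrane, ran from 259 to 357 CPM in Ctrl (median 313) and from 184 to 252 CPM in KO (median 230), without overlap (log2 -0.47, adjusted p = 0.00034). Aldh9a1, of carnitine synthesis (-0.46), Acacb, which makes malonyl-CoA at mitochondria (-0.35), Prkaa2, a catalytic subunit of AMP-activated kinase (-0.27), and Slc22a5, the carnitine transporter of the cell membrane (-0.20), were also lower (adjusted p = 0.012 to 0.045).

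Of 10 tested genes of activation and hydrolysis, 2 were higher (Acot9 at 0.33 and Acss2 at 0.17) and 2 lower (Acsf2 at -0.62 and Acot3 at -0.74), shares near those of all tested genes. Of 8 tested further oxidation genes, 3 were lower and 0 higher, the acyl-CoA dehydrogenase Acad11 (-0.44), Hsd17b10 (-0.36) and Echdc3 (-0.38), with a median of -0.08.

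Peroxisomal oxidation genes were lower in 7 of 11 tested cases and higher in 0 (median -0.28). Abcd2, a transporter of very long acyl groups into peroxisomes, ran from 10.04 to 16.4 CPM in Ctrl (median 11.9) and from 4.11 to 7.15 CPM in KO (median 5.17; log2 -1.21, SE 0.149, adjusted p = 1.5e-05). Phyh, which starts the α-oxidation of branched fatty acids, ran from 963 to 1190 CPM in Ctrl and from 621 to 845 CPM in KO (log2 -0.60, adjusted p = 3.6e-05). Scp2, a thiolase and lipid carrier, was also lower, without overlap between groups (-0.39, adjusted p = 0.00039).

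Ketone body genes split. Acat1 (-0.53) and Oxct1 (-0.44), which serve in the use of ketone bodies as fuel, were lower, both without overlap between groups (adjusted p = 1.0e-04 and 0.00050). Bdh1, the mitochondrial 3-hydroxybutyrate dehydrogenase, was higher, from 2.14 to 7.73 CPM in Ctrl (median 3.74) to between 13.8 and 30.8 CPM in KO (median 21.1; log2 2.60, SE 0.249, adjusted p = 1.0e-06).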

How the data were processed

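RNA was extracted from sorted cells with the PureLink Micro kit and libraries were made with SMART-Seq v4 and Nextera XT, per the labels' protocols, a chemistry that does not mark strand. STAR, featureCounts, DESeq2 and DESeq and the build mm10 are named in the submitters' processing notes, with versions, annotation, and strand and overlap settings not given there. The deposited values are whole-number counts per gene with exon length, beside the authors' deposited log2 fold changes and p-values of their own comparison.

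From the counts, genes passing edgeR's filterByExpr (11170 of 23337) were scaled by TMM and tested with edgeR 4.0.16 (R 4.3.3), the quasi-likelihood F test of KO against Ctrl over all 14 libraries, with Benjamini-Hochberg adjustment over all tested genes and a threshold of 0.05. The SE is the log2 fold change divided by the square root of F. CPM use TMM-scaled totals. The 7 ratios used log2 counts with a pseudocount of 0.5 and a two-sided exact permutation test over libraries. Replicates of a group differed by more than counting error in every pair. Promoters and motifs came from RefSeq tables with Python 3.11.15.

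The genes, lists and ratios were chosen with earlier results of these data known. Values by library are given for the gene with the smallest p and the gene with the highest level per length in each step, every gene called higher, the genes of the ratios and, in each further list, up to 4 genes with the smallest p, with the other genes as ranges or fold changes. Some genes of the further lists are not reported here. Whether the guide virus also carries Cre is not given, so effects of guide and vector cannot be told apart. Alternatives were DESeq2 1.42.0, other scalings and filters, a replicate block, a term for library indices 7 to 10, each set of libraries alone, and each library left out in turn. The depths and counts limit precision, and the spread between libraries corresponds to a biological coefficient of variation of 16.2%.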

Additional observations from a re-analysis of the deposited data

Results flagged for a closer look

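A single library stood apart from the others of its group in 2 of the 74 gene-by-group sets of 7 libraries examined (the 37 genes in each of 2 groups), by a gap to the nearest library above 0.568 of the group's range. Chance flags about 1 in 20 such sets. Fabp4 reached 267 CPM in Ctrl replicate 5, where the next Ctrl library was at 166 CPM (0.620 of the range). Ctrl replicate 5 also had the highest sums of endothelial (784 CPM), macrophage (115 CPM) and fibroblast markers (603 CPM) in its group. Cpt1b reached 11.6 CPM in Ctrl replicate 7, where the next was at 8.51 CPM (0.608 of the range). Neither gene was called different between KO and Ctrl by edgeR's quasi-likelihood test (adjusted p = 0.39 and 0.93).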

How the results depend on the processing

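Of the 29 genes called among the 37, 26 kept their call whichever library was left out and 24 kept it under all alternatives run. The number lower was 24 with library size alone or within indices 7 to 10, between 26 and 30 under the other settings, and between 25 and 29 with 1 library left out. The number higher was 2 with library size alone, 3 with the replicate block and 3 with a term for indices 7 to 10. Over all genes, library size alone gave 852 lower and 3064 higher, and indices 7 to 10 alone 777 lower and 689 higher, from fewer samples. Cpt1a changed sign with library size alone (0.086), within indices 7 to 10 (0.21) and with a library left out (-0.11 to 0.028), and Cpt1b among the other 10 libraries (-0.029) and with a library left out (-0.026 to 0.12). With a library left out, the Fabp3 to Fabp4 ratio differed by -9.0e-05 to 0.38, that of Cpt1b to Cpt1a by -0.0033 to 0.21 and that of Hadha to Hadhb by 0.12 to 0.17. With the replicate block the last kept its difference of 0.14 but did not pass (exact sign-flip permutation, adjusted p = 0.082). Leaving libraries out also changes the number of samples, which the block does not. The cause of these changes was not tested. The call for Fabp3 was gained with the block and with the term (edgeR adjusted p = 0.0083 in both). After each gene's mean within its group was subtracted, log2 CPM of libraries with the same replicate number correlated at 0.061 to 0.53. Of these pairs, 6 of 7 were over 0.1, and 2 of 7 KO libraries correlated best with their own number. The numbers were therefore not taken to pair the samples. With the block 30 of the 37 were lower. The authors' deposited table has 29 lower and 1 higher.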
